A study of Homo sapiens with 4 samples.

Results

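The comparison covers BEAS-2B cells that received 10 mGy of gamma rays against cells of the same line that received no radiation. Both were measured by single-cell RNA sequencing with 1 library each. Genes were described if their mean level over both libraries was at least 10 CPM (UMIs of a gene scaled to a library total of 1000000), which held for 8550 of the 36601 genes listed in the count matrices. A gene under 10 CPM in 1 library could pass this floor through the other library alone. Cells were barcodes with at least 5000 unique molecular identifiers (UMIs, counts of captured RNA molecules) and at most 10% of UMIs in genes whose symbol starts with MT-. These limits kept 8998 of 11111 barcodes in the control (labelled R0) and 12515 of 21514 at 10 mGy (R10), 21513 cells in all. The whole series holds 47213 such cells in 4 libraries, the other two being 100 mGy (R100) and 1 Gy (R1000).

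BEAS-2B cells come from human bronchial epithelium and were immortalized for growth in culture. The gamma rays came from a Cs-137 source, the cells were irradiated in T25 flasks, and RNA was taken from cells cultured for 30 min after irradiation. The labels describe the control only as cells without radiation. No label names separate cultures or a repeat of any dose. A condition is thus 1 library of 1 line, and the number of cultures behind it is not given. With 1 library per condition no test was possible, no p-value is given, and dose and library cannot be told apart. Ratios carry exact 95% intervals from the pooled UMIs, which cover counting error only. The comparison addresses which transcripts differ shortly after a low dose of radiation.

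Ionizing radiation breaks DNA directly and through reactive oxygen species made from water. Double-strand breaks are sensed by kinases that stabilize the transcription factor p53, which then turns on genes for cell cycle arrest, repair and apoptosis. Immediate early genes respond to many stresses within minutes. Peroxiredoxins are enzymes that remove oxidants, and metallothioneins are small proteins that bind metal ions. Ribosomal protein and respiratory chain genes make up a large part of the mRNA of growing cells and encode many short proteins.

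In the kept cells the pooled depth was 208270532 UMIs in the control and 269750978 at 10 mGy, so that counting error is small for nearly every gene described. The median cell had 21701.5 UMIs and 5678 detected genes in the control, and 19987 UMIs and 4976 genes at 10 mGy. Barcodes under 5000 UMIs numbered 2051 in the control and 8953 at 10 mGy, and the libraries shared 38 kept barcodes (0.304% of those at 10 mGy). Of 12 bronchial epithelial markers, 4 keratin genes (KRT7, KRT8, KRT17 and KRT18) reached 10 CPM in both libraries, while 6 markers stayed under 1 CPM in both, among them CDH1 (E-cadherin), KRT5, TP63 and the secretory and ciliated cell markers SCGB1A1, MUC5AC and FOXJ1. Of 8 mesenchymal or fibroblast markers, 4 (VIM, FN1, CDH2 and COL1A1) reached 10 CPM in both libraries, with VIM at 2687 CPM in the control and 2498 at 10 mGy. COL1A2, DCN and PDGFRA stayed under 1 CPM in both, and PDGFRB was at 7.59 and 7.29 CPM. The summed CPM of 3 endothelial markers was 0.485 in the control and 0.664 at 10 mGy, that of 6 immune markers 0.975 and 1.60, and that of 3 erythroid markers 0.0432 and 0.104, with CD3E at 0 UMIs in both.

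More genes were lower than higher at 10 mGy on the scale of total UMIs. Of the 8550 genes, 1311 (15.3%) were at least 1.2-fold higher at 10 mGy, 4518 (52.8%) were at least 1.2-fold lower, and 2721 lay between. At 1.5-fold, 415 genes (4.85%) were higher and 2171 (25.4%) lower, and at 2-fold 29 were higher and 340 lower. The median gene was at 0.812 of its control level, a log2 ratio of -0.30, and all ratios below can be read against this shift. Scaled so that the median gene does not change, 2607 genes were higher and 2316 lower, which moves the share of higher genes among those called from 22.5% to 53%. The direction of genes between 0.812 and 1 thus depends on the scaling, while 1 factor per library leaves the order of genes as it is. The shares of 15.3% higher and 52.8% lower are the background for the counts of genes below on the scale of total UMIs. Counts below under median ratio scaling, the scaling that holds the median gene fixed, have another background. It is 2607 higher and 2316 lower of the 8550 genes, so they cannot be read against 15.3% and 52.8%.

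Among genes with a mean of at least 100 CPM, mitochondrially encoded and cytosolic ribosomal protein genes aside, the highest ratio was that of NNMT, which methylates nicotinamide. It had 69.3 CPM in the control and 170 at 10 mGy, a ratio of 2.45 (2.41 to 2.50). BLVRB, a biliverdin and flavin reductase, went from 66.0 to 152 CPM (ratio 2.30, 2.26 to 2.35). Next in order were IFI27L2 (2.23), C12orf57 (2.19), the calcium-binding S100A6 (2.15), the microsomal glutathione transferase MGST3 (2.13), the ribonuclease RNASEK (2.12) and the metallothionein MT1E (2.10). NDUFB3 and NDUFB4 of respiratory complex I, the proteasome subunit PSMB3 and the RNA polymerase subunit POLR2L followed, each between 2.03 and 2.04. S100A6 was the most abundant of these 12, with 1846 CPM in the control and 3976 at 10 mGy.

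The lowest ratio in the same range of expression was that of FAT1, a giant protocadherin. It had 201 CPM in the control and 63.6 at 10 mGy, a ratio of 0.316 (0.311 to 0.322). The linker histone gene HIST1H1B was at 0.357, the guanine nucleotide exchange factor gene TRIO at 0.361 and DST (dystonin, a plakin that links filament systems) at 0.371. THBS1 (thrombospondin 1) was at 0.405 and FN1 (fibronectin) at 0.407, with 1541 CPM in the control and 627 at 10 mGy. SPTBN1, MICAL2, MYBL1 and SPEN were also among the 12, between 0.419 and 0.442.

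**Figure D1:**
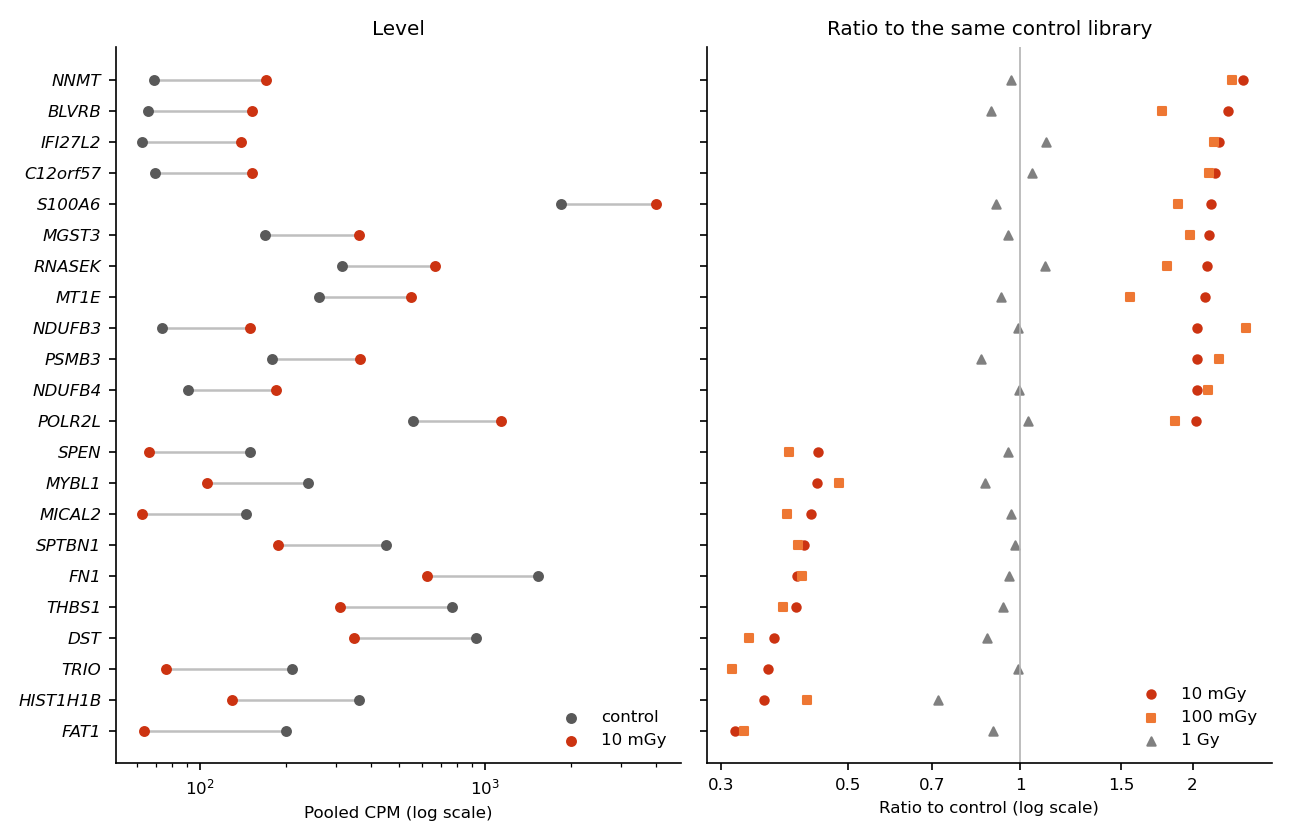
Pooled CPM of genes among the 12 with the highest and the 12 with the lowest ratios at 10 mGy, in the control and at 10 mGy (left, log scale), and their ratios to the same control library at 10 mGy, 100 mGy and 1 Gy (right, log scale). FAT1 was at 0.316 of the control at 10 mGy and NNMT at 2.45, and the 1 Gy points lie between 0.855 and 1.11 except for HIST1H1B at 0.717.

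Cytosolic ribosomal protein genes encode the protein part of the ribosome, which joins a large and a small subunit. Of 79 measured genes, 73 were at least 1.2-fold higher at 10 mGy and 0 at least 1.2-fold lower, with a median ratio of 1.47. Together they took 13.9% of all UMIs in the control and 20.01% at 10 mGy. The 47 genes of the large subunit had a median of 1.44 and the 32 of the small subunit one of 1.51. The members differed from each other by more than the counting error. FAU, a fusion of a ubiquitin-like protein and RPS30, went from 863 to 1711 CPM (1.98). At the other end RPS2, the most abundant of the small subunit genes, had 5872 CPM in the control and 5476 at 10 mGy (0.933, 0.930 to 0.935), and RPL4 stood at 0.998 and RPSA at 1.08. The genes have many processed pseudogenes, and how the authors assigned reads shared with them is not stated in the sources used here.

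Many mRNAs of the translation machinery start with a run of pyrimidines at the 5′ end (the TOP motif), through which the mTOR pathway controls their translation. The windows below show 15 bases before and 15 after the RefSeq transcription start in GRCh38.p14, on the strand of the gene, with capitals for the run of C and T that holds the start base. They are shown because genes with a long run had ratios both above and below 1. In RPS28 the annotated start base is not C or T and a run begins at the next base, so its reading depends on the annotated start.
RPS12 (chr6:132814554-132814583, plus strand): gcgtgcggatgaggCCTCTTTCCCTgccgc
RPL18 (chr19:48619164-48619193, minus strand): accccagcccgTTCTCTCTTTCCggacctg
RPL37A (chr2:216498829-216498858, plus strand): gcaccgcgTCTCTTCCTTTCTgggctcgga
RPS28 (chr19:8321481-8321510, plus strand): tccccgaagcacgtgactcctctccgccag
COX7C (chr5:86617926-86617955, plus strand): ccatttcccaTCTTTCTTTTCagtccttgc
EEF2 (chr19:3985449-3985478, minus strand): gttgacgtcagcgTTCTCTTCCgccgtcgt
FN1 (chr2:215436054-215436083, minus strand): tcccggcgctcggacgcccgcgccggctgt
RPS12 was at 1.45 of the control, RPL18 at 1.35 and RPL37A at 1.22, each with a run of at least 11 bases, and RPS28 was at 1.48. COX7C, a subunit of cytochrome c oxidase with a run of 11 bases, was at 1.76. EEF2, the elongation factor that moves the ribosome along the mRNA, has a run of 9 bases and was at 0.756.

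A run of at least 5 pyrimidines over the start base was found in 45 of 63 ribosomal protein genes matched to a RefSeq promoter (71.4%), in 9.64% of the 7093 measured genes that could be matched and in 9.60% of all 35116 promoters in the table. The median ratio of ribosomal protein genes was 1.47 both with the run and without it. Genes whose annotated start lies off the run, such as RPS28, count as without it, so these medians cannot show what the TOP motif contributes. That was not tested. Outside the ribosomal protein list the median ratio was 0.865 for 639 genes with the run and 0.802 for the others, whose transcripts were longer (median 3188 against 2763 bases). With the run and without it the medians were 1.44 and 1.35 for transcripts of 500 to 1000 bases, 1.06 and 1.07 at 1000 to 2000, 0.832 and 0.812 at 2000 to 4000, and 0.719 and 0.686 at 4000 to 8000. Of 24 translation factors and other TOP genes, 10 were at least 1.2-fold higher and 6 lower (25%, against 52.8% of all genes), and under median ratio scaling 14 were higher and 1 lower. In that group EIF3K, a small subunit of initiation factor eIF3, was at 1.92, EEF1A1, the most abundant elongation factor, at 1.17, the poly(A)-binding protein gene PABPC1 at 0.733 and EIF4B at 0.525.

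The respiratory chain is built from subunits of both genomes, and the nuclear and mitochondrial genes went opposite ways. Of 74 nuclear genes for complexes I, III, IV and V, 62 were at least 1.2-fold higher at 10 mGy and 1 lower, with a median ratio of 1.57 and a share of UMIs that went from 1.64% to 2.56%. Of the 13 mitochondrially encoded genes, 0 were at least 1.2-fold higher and 10 were at least 1.2-fold lower, with a median of 0.690 and a share that went from 5.90% to 4.60%. Background shares for these calls were 15.3% of all genes higher and 52.8% lower. The high count of the nuclear genes stayed within 1.5 times of this under every alternative scaling run, while the count of mitochondrially encoded genes called lower was 6 of 13 under median ratio scaling.

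Among the nuclear genes, those of complex IV (cytochrome c oxidase) had the highest median, 1.77 over 11 genes. COX5A went from 137 to 272 CPM (1.98), COX6C from 151 to 291 (1.93) and COX6B1 from 246 to 436 (1.77), with COX8A lowest at 1.13. In complex I, the entry point of electrons from NADH, 31 of 37 genes were higher, led by NDUFB3 (2.04), NDUFB4 (2.03) and NDUFA6 (1.99). NDUFS1, which encodes the largest subunit of this complex, was the 1 gene of the chain called lower, with 116 CPM in the control and 90.6 at 10 mGy (0.779, 0.766 to 0.793). In complex V (ATP synthase), 16 of 18 genes were higher, the exceptions being ATP5F1B (1.06) and ATP5F1A (1.01), which encode the beta and alpha subunits of the F1 part. The core subunits of complex III, UQCRC1 and UQCRC2, were both at 1.11, below the small subunit genes UQCRB (1.81) and UQCR10 (1.67). In complexes I, III and V the lowest gene thus encoded a large core subunit.

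The mitochondrially encoded genes differed among themselves, from 0.260 to 0.923 of the control. MT-CO2 had 15292 CPM in the control and 14115 at 10 mGy (0.923), and MT-ND3 (0.912) and MT-CYB (0.879) also stayed within 1.2-fold. MT-CO1 was at 0.752, MT-ND4 at 0.690, MT-ATP6 at 0.652 and MT-ND1 at 0.502. MT-ATP8, which overlaps MT-ATP6, went from 90.1 to 34.5 CPM (0.383), and MT-ND6, the 1 mRNA made from the light strand, from 315 to 81.7 CPM (0.260, 0.256 to 0.264). MT-ND6 lies opposite other mitochondrial transcripts, and whether the counting used strand is not stated in the sources used here. The limit of 10% on mitochondrial UMIs removed 62 barcodes of the control and 46 at 10 mGy, so few cells were lost to it.

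Nuclear genes for mitochondrial translation and import also had more members higher than lower. Of 76 mitochondrial ribosomal protein genes, 50 (65.8%) were at least 1.2-fold higher, against 15.3% of all genes, and 4 (5.26%) lower, against 52.8%, with a median of 1.29. MRPS21 was highest at 1.88 and MRPS9 lowest at 0.769. Of 23 genes for import through the outer and inner membranes, 11 (47.8%) were higher and 5 (21.7%) lower, with a median of 1.17, and under median ratio scaling 17 were higher and 2 lower.

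Genes for enzymes that remove superoxide and peroxide had a median ratio of 1.35, with 14 of 17 at least 1.2-fold higher (82.4%, against 15.3% of all genes) and 0 lower. The peroxiredoxin genes PRDX1 (498 to 875 CPM, 1.76), PRDX5 (1.75) and PRDX2 (1.68) led it, followed by the phospholipid peroxidase GPX4 (1.67) and thioredoxin TXN (1102 to 1648 CPM). Superoxide dismutases were nearer the control, with SOD2 at 1.26 and SOD1 at 1.21, and catalase (CAT) was at 0.992 (0.955 to 1.03). All 3 measured metallothionein genes were higher. MT2A was among the most abundant mRNAs of these cells, with 3039 CPM in the control and 5464 at 10 mGy (1.80), MT1X was at 1.91 and MT1E at 2.10, and these genes are close copies of each other whose reads could be split. Ferritin stores iron, and its light chain gene FTL went from 2616 to 4645 CPM (1.78), while the heavy chain gene FTH1 went from 3980.3 to 5247 (1.32).

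Targets of NRF2, the transcription factor for the oxidant response, had a median ratio of 0.945, with 7 of 19 higher (36.8%, against 15.3% of all genes) and 8 lower (42.1%, against 52.8%), and with 9 higher and 5 lower under median ratio scaling. MGST1 (1.92), SQSTM1 (1.35) and NQO1 (1.34) were higher. HMOX1 (heme oxygenase 1) was at 0.854, TXNRD1 at 0.804, and the glutathione synthesis genes GCLC at 0.654 and GCLM at 0.640.

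S100 genes encode small calcium-binding proteins, and 5 of 6 were at least 1.2-fold higher, against 15.3% of all genes. Besides S100A6, S100A13 was at 1.87, S100A11 at 1.62 and S100A10 at 1.45, with S100A16 at 1.18. Interferon-stimulated genes had a median of 1.54, with 13 of 21 higher (61.9%, against 15.3% of all genes) and 1 lower (IFIT5 at 0.777). The immunoproteasome subunit genes PSMB9 (36.9 to 76.0 CPM, 2.06) and PSMB8 (1.81), IFITM3 (1.73), ISG15 (1.60) and B2M, the light chain of class I molecules (686 to 1099.6 CPM, 1.60), were among those higher. The class I heavy chain genes were closer to the control, with HLA-B at 1.14 and HLA-C at 1.06.

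Genes for large cytoskeletal and adhesion proteins were lower almost throughout. Of 32 genes, 30 were at least 1.2-fold lower (93.8%, against 52.8% of all genes) and 1 higher, and 23 were lower under median ratio scaling. They had a median ratio of 0.569 and a share of UMIs that went from 1.31% to 0.780%. MYH9, the heavy chain of non-muscle myosin, went from 1815 to 804 CPM (0.443), and the filamin gene FLNA from 1181 to 690 (0.584). The spectraplakin gene MACF1 was at 0.490, PLEC (plectin) at 0.444 and the spectrin gene SPTBN1 at 0.419. Among the least low were the integrin gene ITGB1 at 0.780, the actinin gene ACTN1 at 0.823 and AHNAK2, with an annotated transcript of 18254 bases, at 0.842. The exception was ITGB4, which had 8.47 CPM in the control and 12.2 at 10 mGy (1.44, 1.36 to 1.53). It passed the floor of 10 CPM only through the 10 mGy library.

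Of 20 genes for actins, light chains, thymosins and the Arp2/3 complex, 6 were higher (30%, against 15.3% of all genes) and 4 lower (20%, against 52.8%), and under median ratio scaling 11 were higher and 0 lower. The light chain genes MYL12B (1.63) and MYL6 (1.59) were higher while their heavy chain partners MYH9 and MYH10 (0.554) were lower. The actin genes ACTB (0.924) and ACTG1 (0.909) differed little from the control, and TPM4 was lowest at 0.717.

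Matricellular and TGF-beta response genes had a median of 0.679, with 17 of 21 at least 1.2-fold lower (81.0%, against 52.8% of all genes), and with 10 lower and 3 higher under median ratio scaling. SKIL, a TGF-beta feedback inhibitor, was lowest at 0.377, SMAD7, another such inhibitor, was at 0.517, and the matrix genes TGFBI and TNC were at 0.545 and 0.686. The YAP targets CCN1 (0.754) and CCN2 (0.861) were less low than THBS1 and FN1, and ANKRD1 was the 1 gene called higher (1.25, 1.22 to 1.28).

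**Figure D2:**
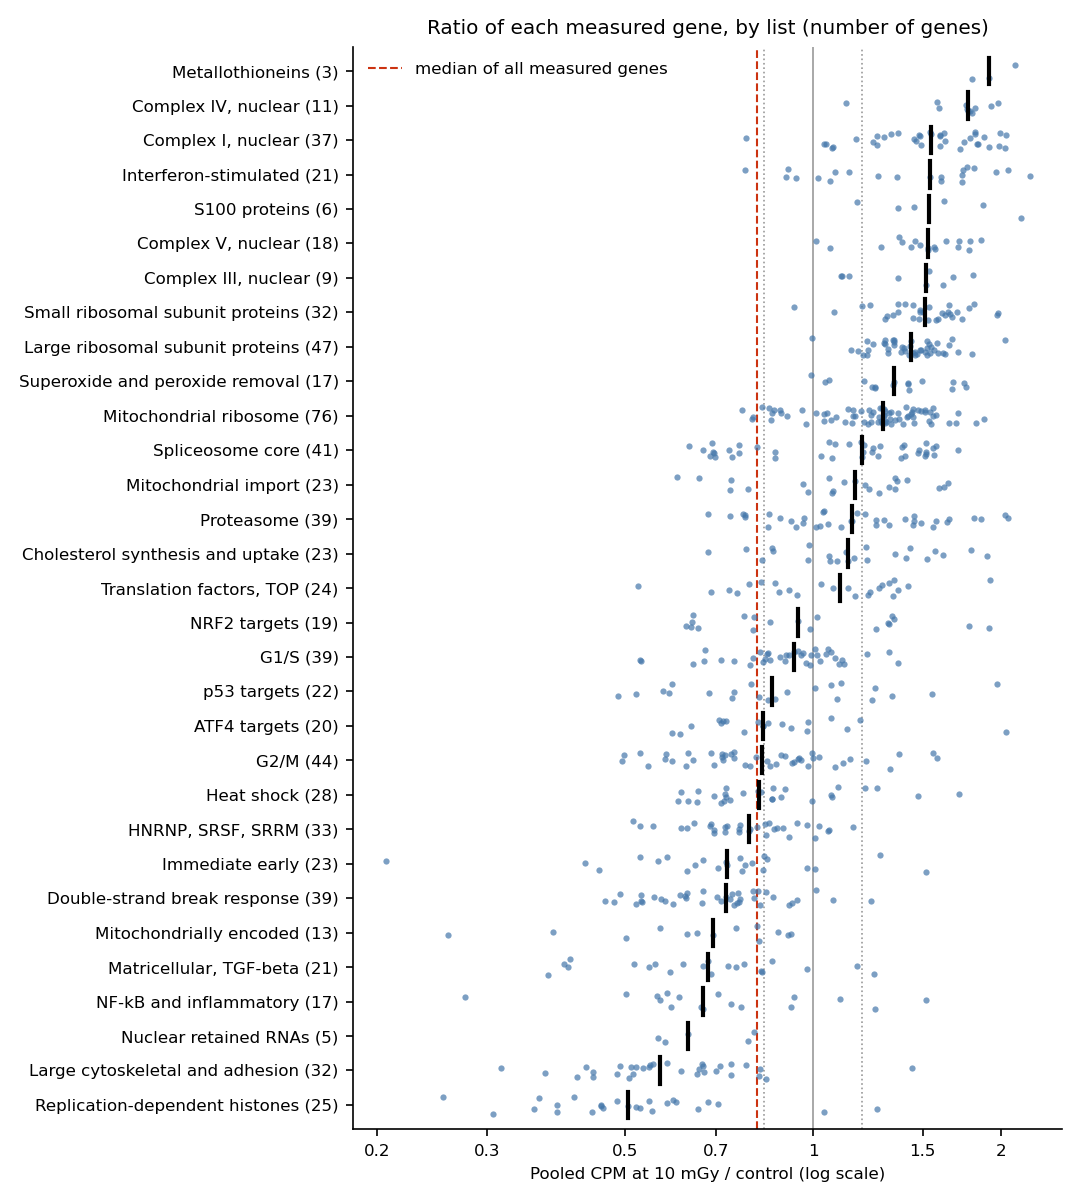
Ratio of pooled CPM at 10 mGy to control (log scale) for each measured gene of 31 lists, with the number of genes in parentheses. Black bars are list medians, dotted lines 1.2-fold either way, and the dashed line the median of all 8550 genes at 0.812. Lists run from replication-dependent histones (median 0.506) to metallothioneins (1.91).

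Genes that sense and repair double-strand breaks were mostly lower. Of 39 genes, 31 were at least 1.2-fold lower and 1 higher, a share of 79.5% against 52.8% of all genes, and the median of 0.726 lies below the 0.812 of all genes. Under median ratio scaling 17 of the 39 were lower and 3 higher. The kinase gene ATR went from 56.7 to 32.3 CPM (0.570), BRCA2 from 133 to 73.8 (0.557), the adaptor gene MDC1 from 46.7 to 22.4 (0.480) and RIF1, which limits end resection, from 210 to 109 (0.520). The checkpoint kinase gene CHEK1 (1.01, 0.984 to 1.04) stood near the control. MAD2L2 was the 1 gene called higher, at 1.24.

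Transcripts of p53 targets were divided, with 5 of 22 at least 1.2-fold higher, 10 lower (45.5%, against 52.8% of all genes) and a median of 0.859. Under median ratio scaling the balance turned, with 9 higher and 5 lower. CDKN1A, which encodes the cell cycle inhibitor p21, had 28.6 CPM in the control and 31.7 at 10 mGy (1.11, 1.07 to 1.15). MDM2, the ligase that degrades p53, went from 61.2 to 29.8 CPM (0.487), and PLK2 and PLK3 were at 0.588 and 0.521. Higher members were RPS27L (392 to 773 CPM, 1.97), TP53I3 (1.55), the pro-apoptotic BAX (1.34), TRIAP1 (1.26) and the damage recognition gene DDB2 (1.24), and GADD45A was at 1.07. In the BCL2 family, 2 of 10 genes were higher, with BAD at 1.47, and 2 lower, with the short-lived survival factor gene MCL1 at 0.632, and under median ratio scaling 5 were higher and 1 lower.

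Immediate early genes had a median of 0.728, with 17 of 23 at least 1.2-fold lower (73.9%, against 52.8% of all genes) and 2 higher, and under median ratio scaling 9 were lower and 4 higher. NR4A1, an orphan nuclear receptor, was lowest at 29.6 CPM in the control and 6.10 at 10 mGy (0.206, 0.195 to 0.218). It passed the floor of 10 CPM only through the control. FOSB was at 0.432, FOS at 0.454, FOSL1 at 0.527 and JUN at 0.835, whereas EGR1 was at 1.28 and JUND at 1.52. IER3, the most abundant of the group, was at 1.01 with 448 CPM in the control and 450.4 at 10 mGy. Of 17 NF-kB and inflammatory genes 12 were lower (70.6%) and 2 higher, with a median of 0.667, and under median ratio scaling 9 were lower and 3 higher. The apoptosis inhibitor gene BIRC3 went from 36.9 to 10.2 CPM (0.277), IL11 was at 0.501, CXCL8 at 0.563 and the feedback inhibitor TNFAIP3 at 0.591. The chemokine gene CCL2 was higher, from 27.4 to 41.5 CPM (1.52), and SOD2, also on this list, was at 1.26.

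Replication-dependent histone genes are active in S phase, and their mRNAs end in a stem-loop in place of a poly(A) tail. Of 66 listed genes 25 were measured, and 23 of these (92%, against 52.8% of all genes) were at least 1.2-fold lower and 1 higher, with a median of 0.506, the lowest of all lists, and 21 lower and 2 higher under median ratio scaling. HIST1H1B went from 362 to 129 CPM, HIST1H1E from 244 to 108 (0.443), HIST1H1C from 368 to 219 (0.596) and HIST1H4H from 36.1 to 9.23 (0.255, 0.244 to 0.267). HIST1H4H and other members counted as lower passed the floor of 10 CPM only through the control. Among them were HIST1H2AJ, HIST1H2BK, HIST1H2AE, HIST2H2AB and HIST1H2BD. The share of 92% and the median of 0.506 include these genes, which being high in the control brought onto the measured list. HIST1H4C was the exception, with 1508 CPM in the control and 1909 at 10 mGy (1.27). It was the most abundant of the list, whose summed level was at 0.802. HIST1H1A was at 1.04. Members of this family are near-identical in sequence, so reads could be split among them.

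Genes of the G1/S list lay on both sides of the control, and whether the share of S phase cells differed was not tested. Of 39 G1/S genes, 3 were higher and 11 lower (28.2%, against 52.8% of all genes), with a median of 0.931, and under median ratio scaling 16 were higher and 5 lower. PCNA, the sliding clamp of replication, was at 1.37, thymidylate synthase TYMS at 1.32 and SLBP, whose protein binds the histone stem-loop, at 1.08, whereas the polymerase genes POLE and POLA1 were at 0.528 and 0.529. G2/M genes had a median of 0.827, with 5 of 44 higher and 22 lower, near the background, and under median ratio scaling 12 were higher and 10 lower. The genes PTTG1 (1.58), UBE2C (1.56) and CKS2 (1.37) were higher, and MKI67 (682 to 339 CPM, 0.497), CENPE (0.494) and ANLN (0.527) lower.

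Genes listed for RNA and protein machines differed from each other, and most counts below depend on the scaling. A place on a list does not make the product of a gene a part of the machine. Of all genes 15.3% were higher and 52.8% lower. On the proteasome list 18 of 39 genes were higher and 5 lower, from PSMB9 at 2.06 to PSMD5 at 0.679. Under median ratio scaling 27 genes of this list were higher and 0 lower. The core beta subunit PSMB3 was at 2.03, and regulatory subunits lay on both sides, with PSMD7 at 1.26 and PSMD12 at 0.736. The spliceosome list, which includes LSm family genes, had 20 of 41 higher and 12 lower. Its ratios ran from SNRPD2, an Sm protein of the core particle, at 1.71 to LSM14B of the LSm family at 0.632. LSm family genes lay on both sides, with LSM7 at 1.52 and LSM12 at 0.684. The counts of the spliceosome list were 27 higher and 2 lower under median ratio scaling. Of 33 HNRNP, SRSF and SRRM genes, which steer splicing, 0 were higher and 19 lower (57.6%, against 52.8% of all genes), and under median ratio scaling 6 were higher and 6 lower. Their median was 0.789, with HNRNPH1 at 0.514, SRSF1 at 0.528 and HNRNPU at 0.553. RNA polymerase subunit genes ranged from POLR1A, the largest subunit of polymerase I, at 0.545 to POLR2G at 2.11, with 9 of 30 higher and 15 lower (50%, near the background), and with 12 higher and 6 lower under median ratio scaling.

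Heat shock genes were near the background of all genes, with 15 of 28 at least 1.2-fold lower (53.6%, against 52.8% of all genes), 4 higher and a median of 0.820. Under median ratio scaling 8 were higher and 5 lower. The inducible HSPA1A was at 1.07 (1.03 to 1.11), HSP90AA1 at 1.27, HSPB1 at 1.48 and the endoplasmic reticulum chaperone gene HSPA5 at 0.711. ATF4, the factor of the integrated stress response, had 128 CPM in the control and 78.2 at 10 mGy (0.612), and 11 of the 20 measured genes of its list, itself included, were lower, again near the 52.8% of all genes. Under median ratio scaling 6 of them were higher and 3 lower. DDIT3, which encodes CHOP, was higher, from 7.75 to 15.8 CPM (2.04, 1.92 to 2.16). It passed the floor of 10 CPM only through the 10 mGy library. In cholesterol synthesis and uptake 10 of 23 genes were higher and 3 lower, with FDPS (1.90), EBP (1.79) and FDFT1 (1.61) above, and under median ratio scaling 18 were higher and 0 lower. All 5 measured genes on the list of nuclear retained noncoding RNAs were lower, 3 of them also under median ratio scaling, with MALAT1 going from 12628 to 7952 CPM (0.630) and NEAT1, the scaffold of paraspeckles, from 3875 to 3049 (0.787).

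Across 8529 nuclear genes with a length in GENCODE 29 the ratio fell with transcript length. The Spearman correlation between the log2 ratio and the length of the annotated transcript with the longest coding part was -0.63. It was also -0.63 for the length of the coding part over 8352 genes, and -0.55 for the joined exons. The span of the gene gave -0.45 and GC content 0.14. Which of these properties bears on the ratio was not tested. The points share the same pair of libraries, and genes are not replicates. The median ratio was 1.36 for 553 genes of 500 to 1000 bases, 1.07 at 1000 to 2000, 0.864 at 2000 to 3000, 0.703 at 4000 to 6000 and 0.566 for 166 genes over 12000 bases. Genes called higher had a median transcript of 1282.5 bases and those called lower one of 4312. The lists above therefore differ in length as well, from a median of 581 bases for metallothioneins and 910 for ribosomal proteins to 8669.5 for the large cytoskeletal genes and 8829 for the 5 nuclear retained RNAs, and what length contributes to each list was not tested. The isoform that the cells express cannot be read from counts per gene.

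Some genes went against this trend, and those named here were chosen after their values were seen. Of 588 nuclear genes with a transcript under 1000 bases, 413 were higher and 50 lower, and 15 of the 50 were replication-dependent histones. Others among them were HDGF, a growth factor (405 to 230 CPM, 0.568), the lipolysis inhibitor gene G0S2 (0.641) and ARHGDIA, which encodes an inhibitor of nucleotide release from small GTPases (669 to 467 CPM, 0.697). Of 1436 genes with at least 6000 bases, 1244 were lower and 28 higher. These 28 included SKP1 (353 to 489 CPM, 1.39), the ubiquitin ligase gene FBXO32 (24.8 to 44.0 CPM, 1.77) and SOD2. They also held the ribosomal protein genes RPL37 (annotated at 7686 bases, ratio 1.58) and RPL14 (7072 bases, 1.22). Among transcripts with equal coding parts the longest was taken, and it need not be the one these cells express. CYP1B1, a xenobiotic-metabolizing cytochrome with an annotated transcript of 5250 bases, went from 202 to 338 CPM (1.67, 1.65 to 1.69).

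**Figure D3:**
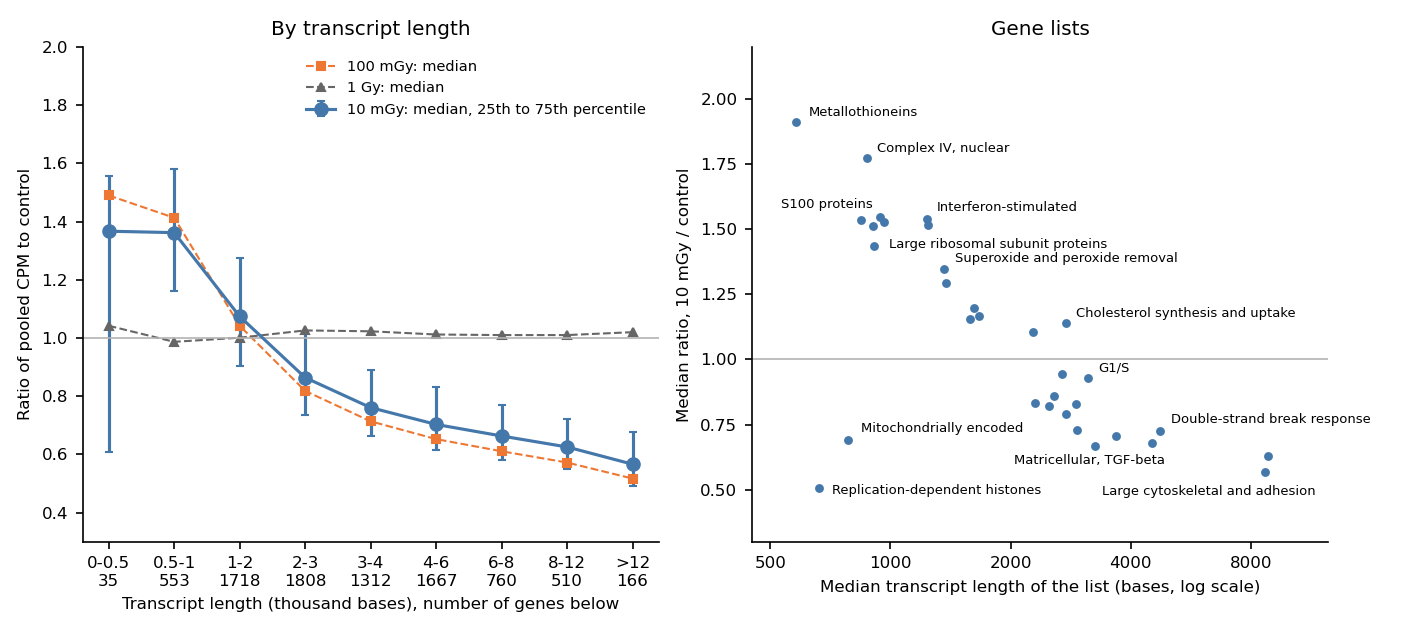
Left, median ratio of pooled CPM to control by transcript length (axis in units of 1000 bases), with the 25th to 75th percentiles at 10 mGy and the medians at 100 mGy and 1 Gy; the second line of the axis gives the number of genes. Right, median ratio of each list at 10 mGy against its median transcript length (log scale). The 10 mGy medians go from 1.36 at 500 to 1000 bases to 0.566 above 12000, and the histone and mitochondrially encoded lists are short but lower.

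How far single cells of the 2 libraries overlapped differed between groups. Ribosomal protein genes took 13.9% of the UMIs of the median control cell (5th to 95th percentile 11.5% to 16.9%) and 19.9% of the median cell at 10 mGy (16.8% to 23.4%), and 94.2% of the cells at 10 mGy lay above the 95th percentile of the control. For nuclear respiratory chain genes the medians were 1.63% and 2.54%, and 99.2% of the cells at 10 mGy lay above that percentile. For the large cytoskeletal genes the medians were 1.28% and 0.758%, with 86.5% of the cells at 10 mGy below the 5th percentile of the control. For the S100 genes 82.0% lay above the 95th percentile and for metallothioneins 47.1%. Overlap was larger for the G2/M, histone and mitochondrially encoded genes, with 10.3%, 17.2% and 19.1% of the cells at 10 mGy below the 5th percentile of the control, and for the small actin genes, with 14.7% above the 95th. Cells of a library are not replicates, so these shares describe 2 libraries.

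**Figure D4:**
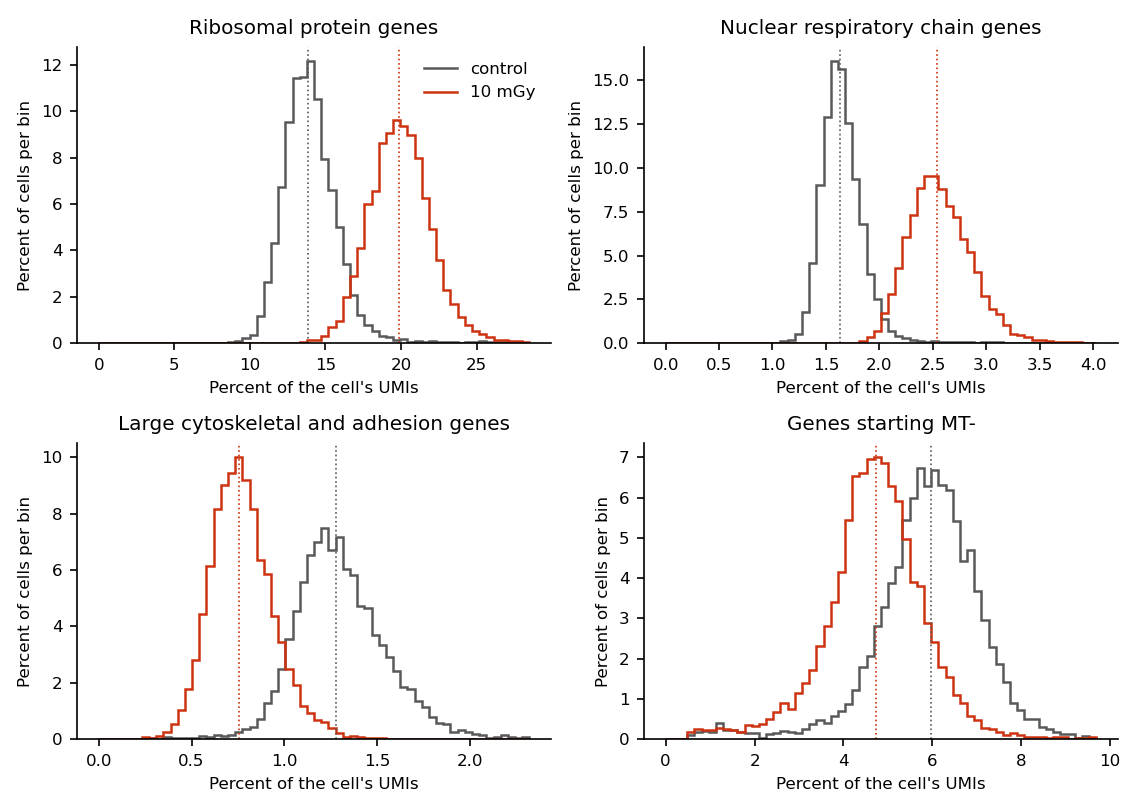
Percent of each cell's UMIs in 4 groups of genes, for 8998 control cells and 12515 cells at 10 mGy; lines are histograms in percent of cells per bin and dotted lines the medians. Ribosomal protein and nuclear respiratory chain genes moved up as a whole distribution (medians 13.9% to 19.9% and 1.63% to 2.54%), and the large cytoskeletal genes and genes starting with MT- moved down.

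The ratios were also taken within ranges of UMI count per cell. In cells with 5000 to 10000 UMIs the median ratio of ribosomal protein genes was 1.35, and it was 1.43, 1.47 and 1.55 in cells with 10000 to 20000, 20000 to 40000 and more than 40000 UMIs. Nuclear respiratory chain genes went from 1.52 to 1.63 over the same bins, and the large cytoskeletal genes stayed between 0.563 and 0.587. The mitochondrially encoded genes depended most on the UMI count, with 0.811 in the lowest bin and 0.519 in the highest, and the nuclear retained RNAs were at 0.701 and 0.525 in those bins.

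**Figure D5:**
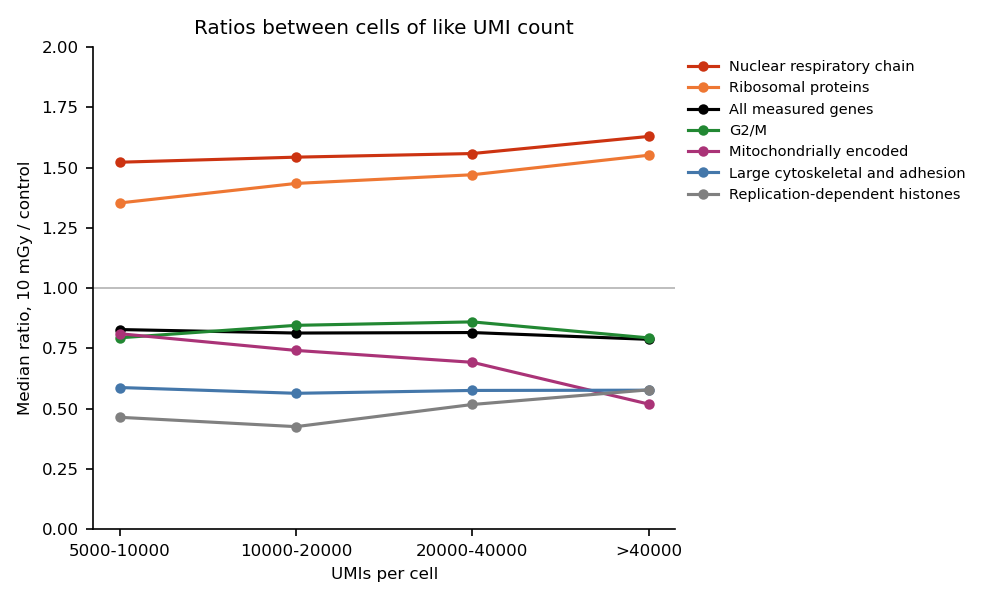
Median ratio of pooled CPM at 10 mGy to control within cells of like UMI count, for all measured genes and 6 lists. Ribosomal protein and nuclear respiratory chain genes stay above 1.3 in each bin, the large cytoskeletal genes stay below 0.6, and the mitochondrially encoded genes go from 0.811 to 0.519.

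The spread of a gene over cells, which the study compares between doses, was measured as the standard deviation over the mean with each cell thinned to 5000 UMIs. Over 1805 genes with at least 100 CPM the median was 106% in the control and 110% at 10 mGy, and 45.5% of the genes were lower at 10 mGy. This measure falls as the level of a gene rises. Of the 79 ribosomal protein genes 78 had a lower spread at 10 mGy (median 39.2% in the control and 33.2% at 10 mGy), and so had 62 of 64 nuclear respiratory chain genes. Of 23 large cytoskeletal and 12 mitochondrially encoded genes, 0 had a lower spread. With the counting variance taken off, 73 of the 79 ribosomal protein genes still had less relative variance between cells at 10 mGy, against 48.8% of all 1805 genes. For the nuclear respiratory chain this count was 44 of 64, and for the large cytoskeletal genes 4 of 23. The 6 histone genes at this level had more, with a median excess variance of 0.453 in the control and 0.775 at 10 mGy.

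The ratios of the 100 mGy and 1 Gy libraries to the same control are given for comparison, and since they share the control library their likeness is not independent. Ribosomal protein genes had a median ratio of 1.47 in the 10 mGy library, 1.60 in the 100 mGy library and 1.01 in the 1 Gy library, that of nuclear respiratory chain genes was 1.57, 1.67 and 0.996, and that of the large cytoskeletal genes 0.569, 0.522 and 1.00. Histone genes were lower in all 3 libraries, at 0.506, 0.441 and 0.777. Genes past 1.2-fold at 10 mGy and within it at 100 mGy included FTL (1.78 against 1.19), FTH1 (1.32 against 0.980), FBXO32 (1.77 against 0.868), CYP1B1 (1.67 against 1.18), SQSTM1 (1.35 against 0.926) and PCNA (1.37 against 1.01), named after their values were seen. Interferon-stimulated genes had a median of 1.17 at 100 mGy and 1.01 at 1 Gy, and cholesterol genes one of 0.905 and 1.03.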

How the data were processed

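For every library the authors deposited raw UMI counts of genes in cell barcodes, written by Cell Ranger 7.0.1 per the file headers. The submitters' processing notes name Cell Ranger, STAR and GRCh37, without roles. Whether introns were counted is not given in the sources used here. UMIs of the kept cells were summed per library and scaled to CPM, with no test because each condition has 1 library. Ratios carry exact conditional binomial 95% intervals. Calls used the study's 1.2-fold limit. Doublets were not called, and the alternative without the 5% of cells with the most UMIs stands in the closing section.

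The members, the 39 gene lists and the rules were chosen with earlier results of these data known. Named genes were the 12 highest and 12 lowest ratios at 100 CPM or more, the extremes and 3 most expressed genes of each list, and any measured gene of a list described in depth; XIST and Y-linked genes were left out. Lists matched older symbols by gene identifier. Lengths came from GENCODE 29 for 99.9% of genes and start sites from RefSeq, both on GRCh38, matched by gene identifier or symbol. The annotation behind the counts is not given in the sources used here. Ratios were checked on simulated counts. Sums and ratios were computed with pandas 2.3.3 and numpy 2.4.6, intervals with scipy 1.17.1 and figures with matplotlib 3.10.9, all under Python 3.11.15. Some genes that these rules name are not reported here.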

Additional observations from a re-analysis of the deposited data

How the results depend on the processing

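With 1 library per condition no replicate could be left out, and no paired analysis was possible because the conditions have no repeated libraries. The counts of genes past 1.2-fold changed with the scaling, the floor and the fold. Median ratio scaling gave 2607 genes higher and 2316 lower, 6 of 13 mitochondrially encoded genes lower and 17 of 39 double-strand break response genes lower. A floor of 1 CPM gave 1967 genes higher and 6846 lower, and a floor of 100 CPM gave 552 and 675 among 1805, with 9 of 11 double-strand break response genes lower. The 1.5-fold limit gave 415 genes higher and 2171 lower, 33 ribosomal protein genes higher, 6 mitochondrially encoded genes lower and 17 double-strand break response genes lower. With at most 5% of UMIs in genes starting with MT-, which kept 1569 control cells and 7744 at 10 mGy, 5 mitochondrially encoded genes were lower. This limit selects cells by the UMIs of these same genes. The counts of nuclear respiratory chain and of large cytoskeletal genes stayed within 1.5 times of 62 and 30 under every alternative run. These were other scalings, cell limits, thinning to 5000 UMIs, equal UMI bins, floors and folds.

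Under median ratio scaling the median log2 ratio of 10 lists changed sign. Of lists past 1.2-fold these were RNA polymerase subunits (0.0308), heat shock genes (0.0132), CCT chaperonin subunits (0.0357), G2/M genes (0.0263) and ATF4 targets (0.0337), and of lists within 1.2-fold p53 targets (0.0806), glycolysis (0.0767), G1/S genes (0.196), NRF2 targets (0.219) and the BCL2 family (0.237). With a floor of 100 CPM the medians of RNA polymerase subunits (0.383), NRF2 targets (0.160) and p53 targets (0.0963) changed sign. Those of the small actin and small nucleolar RNA host genes did so with unscaled UMIs per cell and with the 5% limit. The translocon genes changed sign with unscaled UMIs. NRF2 targets and the BCL2 family did so with ribosomal protein and mitochondrially encoded genes left out of the total. Of 194 named genes 17 changed sign under median ratio scaling, 16 of them within 1.2-fold before. The other, MT-CO3, changed sign under that scaling (0.0120) and with at most 5% of UMIs in genes starting with MT- (0.0501). Median ratio scaling takes the log2 median of -0.30 from every log2 ratio, so values between -0.30 and 0 change sign by construction. The limit of 5% selects cells by UMIs that include those of MT-CO3. Unscaled UMIs per cell gave 963 genes higher and 5183 lower, and leaving out the 5% of cells with the most UMIs, which may hold doublets, gave 1323 and 4490.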

Other observations

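RMRP, the RNA of the mitochondrial RNA processing endoribonuclease, had the lowest ratio of all 8550 genes. It had 5472 UMIs (26.3 CPM) in the control and 833 UMIs (3.09 CPM) at 10 mGy, a ratio of 0.118 (0.109 to 0.126), against 0.208 at 100 mGy and 1.00 at 1 Gy. RMRP passed the floor of 10 CPM only through the control. It is a short noncoding RNA without a poly(A) tail, with an annotated length of 268 bases. Replication-dependent histone mRNAs, which also lack the tail, stood at a median of 0.506 at 10 mGy and 0.777 at 1 Gy, and MT-ND6 at 0.260 and 1.41. The most abundant mRNA of that histone list, HIST1H4C, was higher, at 1.27 at 10 mGy and 1.86 at 100 mGy. These genes were set side by side after their values were seen, and whether the tail bears on their ratios was not tested.

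Zinc finger genes named ZNF, a large family of mostly repressive transcription factors, were lower in 99 of 126 measured genes (78.6%, against 52.8% of all genes) and higher in 6, with a median of 0.705, and under median ratio scaling 53 were lower and 15 higher. Glycolysis genes had a median of 0.856, with 8 of 19 lower (42.1%, against 52.8% of all genes), HK2 at 0.458 and TPI1, at 1.25, the 1 gene higher, and under median ratio scaling 4 were higher and 2 lower. HK2, counted among the 8 lower genes, passed the floor of 10 CPM only through the control. Host genes of small nucleolar RNAs had 10 of 24 higher and 9 lower, from SNHG26 at 0.397 to SNHG19 at 1.68, and 14 higher and 2 lower under median ratio scaling. The chaperonin subunit genes had 4 of 8 lower and 0 higher, near the background, from TCP1 at 0.705 to CCT7 at 1.07, and 0 lower and 2 higher under median ratio scaling. Genes of the endoplasmic reticulum translocon and signal sequence receptor had 7 of 20 higher and 7 lower, from SSR1 at 0.620 to SSR4 at 1.73, and 12 higher and 3 lower under median ratio scaling.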
